A study of Mus musculus with 4 samples.

Results

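A set of 10 stress and p53-linked response genes were followed across the cells of the bone stroma: *Cdkn1a*, *Mdm2*, *Gadd45a*, *Gadd45b*, *Gadd45g*, *Atf3*, *Maff*, *Ier3*, *Sertad1* and *Fosl2*, that is 10 of the 53703 features counted. They were chosen by their difference between mutant and control libraries in these same data, so that difference is described for them here and not tested. Single cells of long bone stroma were captured in droplets at post natal week 12 and sequenced as 4 libraries, 2 from Lats2iECKO mutants and 2 from controls. In the mutants both copies of *Lats2*, a kinase of the Hippo pathway that restrains YAP1 and TAZ, are floxed and can be removed by a tamoxifen-inducible Cre recombinase under the endothelial *Cdh5* promoter. The labels give the controls as untreated, whereas the methods of the study describe Cre-negative littermates that received the same tamoxifen, and a *Cdh5*-driven mT/nG reporter was bred into both. Only endothelial cells (ECs) are expected to lose the gene, so the other classes of cells in the mutant libraries should carry intact *Lats2*. The metaphysis of femur and tibia was digested with collagenase at body temperature and depleted of lineage-positive, CD45+ and CD117+ cells before droplet capture. The study calls the libraries of a group biological replicates, and the labels do not say whether a library is 1 animal or a pool.

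The genes belong to a pair of overlapping programmes. The transcription factor p53 is held low by the ubiquitin ligase MDM2 and, after DNA damage or other stress, switches on *Cdkn1a*, which encodes the cyclin-dependent kinase inhibitor p21, *Gadd45a* and *Mdm2* itself, so that MDM2 closes a negative loop. The other genes are best known as rapid responders: *Atf3*, *Maff* and *Fosl2* encode basic leucine zipper factors that pair with other factors of the ATF, MAF and AP-1 families, *Gadd45b* and *Gadd45g* encode relatives of GADD45A that bind p21, PCNA and a MAP kinase kinase kinase, *Ier3* encodes a survival and apoptosis regulator of the immediate early type, and *Sertad1* encodes a CDK4-binding cofactor. Growth factors, cytokines and tissue handling such as enzymatic digestion are all known to induce genes of this kind.

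The control regions of these genes are shown first, since the list joins p53 targets with other stress genes. The p53 response element (a pair of abutting 10-base half-sites) was searched on both strands within 3000 bases of the first annotated start of each gene. Both central cores had to be intact, with at most 1 mismatch elsewhere in the element. The element was found at 1 of the 10 genes, against 3 of 28 other p53 target genes and 158 of 21738 protein-coding genes (0.727%). The first annotated start of *Atf3* was chr1:190950241, so its promoter at chr1:190915481-190915780 lay outside this search. The count does not cover that promoter. The centre of the single match lay 25 bases upstream of the first annotated start of *Cdkn1a*, at chr17:29309902-29309921 of GRCm39 on the plus strand. It is shown with the cores of both half-sites in capitals.
Cdkn1a p53 element: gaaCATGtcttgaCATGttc
Promoters of all 10 genes, each from 250 bases before to 50 bases after a RefSeq start (13 windows, GRCm38.p6 sequence matched to GRCm39 here), were then searched on both strands for the AP-1 motif TGANTCA, the cyclic AMP response element TGACGTCA, its half-site TGACG and the serum response CArG box, and on the gene's strand for TATAAA. No window of the 10 genes held the AP-1 motif or the CArG box, which 7.81% and 1.63% of all 32851 promoters hold. The full cyclic AMP response element lay in 1 window of *Maff* (1.79% of all promoters), and the half-site in 4 windows, of *Mdm2*, *Atf3* and *Maff* (20.8% of all promoters), the one in the full element included. TATAAA preceded the start of *Gadd45b* and *Gadd45g* (8.32% of all promoters). Windows of 4 genes described at length below are shown, with the p53 element, the cyclic AMP element or half-site, or TATAAA in capitals (in *Atf3* the half-site reads on the opposite strand). Another *Cdkn1a* window, chr17:29312493-29312792 on the plus strand, held 0 p53 elements and is not shown.
Cdkn1a promoter, chr17:29309703-29310002, plus strand: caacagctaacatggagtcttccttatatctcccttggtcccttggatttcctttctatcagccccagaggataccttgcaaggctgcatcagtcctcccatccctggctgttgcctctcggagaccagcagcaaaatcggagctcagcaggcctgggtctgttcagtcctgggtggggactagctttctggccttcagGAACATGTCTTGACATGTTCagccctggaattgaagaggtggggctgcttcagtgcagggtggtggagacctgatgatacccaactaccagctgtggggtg
Atf3 promoter, chr1:190915481-190915780, minus strand: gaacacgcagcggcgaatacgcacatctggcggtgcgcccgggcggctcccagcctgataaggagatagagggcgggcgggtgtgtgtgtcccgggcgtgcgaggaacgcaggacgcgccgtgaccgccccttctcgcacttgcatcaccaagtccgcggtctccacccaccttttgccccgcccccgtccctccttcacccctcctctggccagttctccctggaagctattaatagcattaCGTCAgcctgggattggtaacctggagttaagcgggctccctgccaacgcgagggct
Maff promoter, chr15:79231470-79231769, plus strand: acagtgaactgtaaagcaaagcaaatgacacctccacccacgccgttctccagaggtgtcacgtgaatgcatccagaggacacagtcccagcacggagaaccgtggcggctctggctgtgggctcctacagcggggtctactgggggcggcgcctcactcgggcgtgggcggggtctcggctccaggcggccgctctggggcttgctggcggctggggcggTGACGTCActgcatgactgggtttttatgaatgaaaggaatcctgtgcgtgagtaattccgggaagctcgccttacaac
Gadd45b promoter, chr10:80765675-80765974, plus strand: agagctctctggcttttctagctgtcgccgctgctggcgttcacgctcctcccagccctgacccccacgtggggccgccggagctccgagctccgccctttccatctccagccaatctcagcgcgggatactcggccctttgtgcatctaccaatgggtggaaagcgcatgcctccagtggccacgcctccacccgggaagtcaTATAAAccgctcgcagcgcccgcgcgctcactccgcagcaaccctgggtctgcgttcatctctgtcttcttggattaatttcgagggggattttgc
A match describes letters only, and absence from a window says nothing of the factor.

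Each library held 69636600 to 85899079 UMIs, and 5119 to 6813 of its barcodes passed the filters, with median UMIs of 7574 to 8181. Barcodes were gated by markers into ECs, bone marrow stromal cells (BMSCs), osteoblasts (OBs), smooth muscle cells and pericytes (SMCs), chondrocytes (CHOs) and fibroblasts (FBs), which together took in 20164 of 24599 barcodes. The same barcodes were also clustered, and clusters were named by the marker scores that set the gates, so agreement is partly built in. In that clustering 99.1% of gated ECs, 92.2% of BMSCs, 81.0% of OBs, 95.8% of SMCs and 92.3% of CHOs fell in clusters of the same name. Only 41.9% of FBs did, while 416 of the 1021 FB barcodes lay in unnamed clusters and 172 in CHO clusters, so the FB values mix cells. Of the mutant barcodes 12.0% and 12.7% stayed without a class, of the control barcodes 5.33% and 5.56%. Any 2 libraries shared 6 to 16 barcodes, against 4.4 to 6.8 expected from the sizes of the barcode lists, and the cause of the excess was not tested. *Lats2* itself stood in ECs at 92.0 and 97.8 CPM in mutants against 132 and 122 CPM in controls, a log2 difference of −0.36 (SE 0.0785) with an adjusted p = 6.00e-05 (edgeR, quasi-likelihood). Reads over the whole gene are counted, so a transcript without the deleted exons still counts. Whether such transcripts or cells that kept the gene make up the remaining level was not tested. The study itself reports endothelial *Lats2* as strongly reduced in both transcript and protein. In the other 5 classes *Lats2* differed by −0.21 to −0.01 on the log2 scale and did not pass the test.

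Levels below are CPM, the share of a gene in all counts of a class in a library, scaled to a fixed total, and differences are log2 mutant minus control from a fit over all genes, with the standard error (SE). Across 6 classes the 10 genes gave 60 comparisons. In 49 of them both mutant libraries lay above both controls, in 3 both lay below, and in 8 the groups overlapped. Over all genes tested both mutants lay above both controls for 34.9% in ECs, 28.6% in BMSCs, 32.1% in OBs, 36.5% in SMCs, 29.9% in CHOs and 21.7% in FBs, and below them for 46.3% in ECs, 45.4% in BMSCs, 24.9% in OBs, 37.9% in SMCs, 54% in CHOs and 32.4% in FBs. A 2-fold or larger increase without overlap was seen in 26. That count stood at 5 of 10 genes in ECs, 7 in BMSCs, 6 in OBs, 4 in SMCs, 4 in CHOs and 0 in FBs. Over all genes tested in a class the same description held for 2.18% in ECs, 0.859% in BMSCs, 1.36% in OBs, 5.72% in SMCs, 2.11% in CHOs and 0.374% in FBs. The genes were selected on this contrast, so nothing is read from these gaps. The median difference of the 10 genes was 0.99 in ECs, 1.23 in BMSCs, 1.25 in OBs, 0.70 in SMCs, 0.94 in CHOs and 0.15 in FBs, while the median of all genes tested lay within 0.01 of 0 in each class. In 8 of the 60 comparisons the gene had counts in too few cells to pass the filter (a count in 20% of the cells of the class), and its value comes from a fit without that filter. The median mitochondrial share of a cell's counts also moved with the genotype. It was higher in mutants, at 5.45% and 5.57% against 4.69% and 4.60% in ECs, 4.13% and 4.09% against 3.27% and 3.43% in BMSCs, 5.11% and 4.61% against 4.14% and 4.13% in OBs and 4.95% and 4.83% against 3.99% and 4.36% in FBs, and lower at 7.52% and 8.12% against 8.33% and 8.94% in SMCs and 3.57% and 3.72% against 4.002% and 4.16% in CHOs, and its part in the values of the 10 genes was not tested. With FBs taken from the clustering, which gave a value for 9 of the 10 genes, their median was 0.70 in place of 0.15, and 2 reached 2-fold. The difference closest above 2-fold was *Sertad1* in ECs at 1.06 and the closest below *Gadd45b* in CHOs at 0.96.

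**Figure D1:**
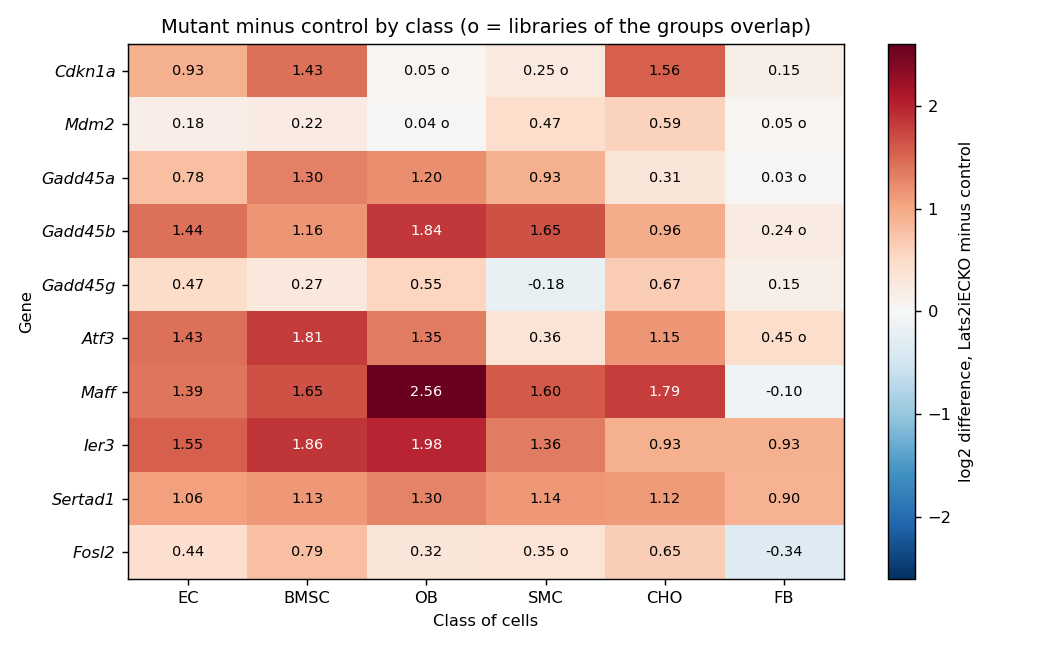
Log2 difference of each gene (rows) between Lats2iECKO and control libraries in each class of cells (columns), from fits over all genes with 2 libraries a group; the letter o marks comparisons in which the libraries of the groups overlap. *Ier3* and *Sertad1* were higher in all 6 classes, *Mdm2* and *Gadd45g* stayed under 0.7 in each, and the FB column has a median of 0.15, which depends on the gate (0.70 with FBs taken from the clustering).

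*Cdkn1a* (ENSMUSG00000023067, chromosome 17 from 29309936 to 29319701), the p21 gene, was higher in mutants in some classes and level in others. In ECs it stood at 264 and 245 CPM in mutants against 126 and 154 CPM in controls, a log2 difference of 0.93 (SE 0.0804). In CHOs the values were 371 and 339 against 120.2 and 137 CPM, that is 355 ± 22.4 CPM (SD, n = 2) against 129 ± 11.7 CPM (SD, n = 2), a difference of 1.56 (SE 0.0662) or 2.94-fold. BMSCs showed 142 and 96.3 against 47.4 and 43.3 CPM (1.43, SE 0.238), with the mutant libraries further apart than the controls. In these 3 classes the lower mutant lay well above the higher control. OBs, which already held 226 and 219 CPM in controls, held 242 and 225 CPM in mutants, and the groups overlapped. The same was true of SMCs at 144 and 110.1 against 95.7 and 118 CPM. In FBs, the class with the highest control level, 392.2 and 413 against 378 and 370.5 CPM gave 0.15 (SE 0.0731), which turned to −0.23 with classes taken from the clustering.

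*Mdm2* (ENSMUSG00000020184, chromosome 10 from 117524780 to 117546730), the p53 target that encodes the ligase against p53, differed little in most classes. Its largest difference was 0.59 (SE 0.0643) in CHOs, at 76.1 and 66.0 against 51.5 and 48.9 CPM. In SMCs the first control library stood close to the mutants and the second far below, at 43.6 and 40.7 against 39.4 and 22.5 CPM, the lowest resting on 37 counts. ECs showed 52.99 and 53.2 against 50.6 and 47.2 CPM (0.18) and BMSCs 46.6 and 45.5 against 43.0 and 39.03 CPM (0.22), both small but without overlap. In OBs and FBs the groups overlapped, with differences of 0.04 and 0.05.

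The 3 GADD45 genes differed from each other. *Gadd45b* (ENSMUSG00000015312, chromosome 10 from 80764523 to 80768038) was at least 2-fold higher in 4 classes. It stood in ECs at 173 and 153 CPM in mutants against 58.1 and 67.4 CPM in controls (1.44, SE 0.0834). In OBs it stood at 273 and 263 against 75.1 and 72.1 CPM (1.84, SE 0.0759), and in SMCs at 368 and 358 against 103 and 129 CPM (1.65, SE 0.0995). The mutant libraries of each of these classes were close together and held over 2 times the highest control. BMSCs gave 259 and 231 against 115 and 113 CPM (1.16) and CHOs, the class with the highest level, 563 and 535 against 288 and 315 CPM (0.96). FBs overlapped at 160.0 and 176 against 129 and 165 CPM, a difference of 0.24, but with classes taken from the clustering in place of the gates the FB difference was 1.65.

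*Gadd45a* (ENSMUSG00000036390, chromosome 6 from 67012070 to 67014441), the classical p53 target of the family, was a low gene in all classes. BMSCs showed its largest difference, 1.30 (SE 0.111), at 59.2 and 47.0 against 21.7 and 22.6 CPM. In OBs it lay below the filter, at 8.84 and 8.39 against 3.33 and 3.49 CPM (1.2, SE 0.311). ECs, also below the filter, gave 27.9 and 24.4 against 16.1 and 16.01 CPM (0.78), and SMCs 47.7 and 33.4 against 24.6 and 18.2 CPM (0.93). Each of these 4 classes showed both mutants above both controls, while the FB values of 37.9 and 57.7 against 46.8 and 50.3 CPM overlapped. *Gadd45g* (ENSMUSG00000021453, chromosome 13 from 52000714 to 52002508) differed less, by 0.67 in CHOs (312 and 305 against 199.5 and 213 CPM), 0.55 in OBs (219 and 196 against 137 and 141 CPM) and 0.47 in ECs (286 and 260.3 against 193 and 218 CPM). SMCs went the other way, at 184 and 206 against 219 and 227 CPM (−0.18, SE 0.0896). BMSCs and FBs gave 0.27 and 0.15.

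Among the leucine zipper factors *Atf3* (ENSMUSG00000026628, chromosome 1 from 190902493 to 190950241), a stress-induced member of the ATF family, stood in ECs at 198 and 194 CPM in mutants against 76.3 and 75.5 CPM in controls, that is 196 ± 2.57 CPM (SD, n = 2) against 75.9 ± 0.616 CPM (SD, n = 2), a difference of 1.43 (SE 0.0806) or 2.69-fold. In CHOs it reached 440.1 and 419 against 202 and 212 CPM (1.15, SE 0.0501), and in OBs 106 and 119 against 41.6 and 45.7 CPM (1.35, SE 0.0938). The BMSC values of 50.04 and 41.3 against 15.3 and 10.4 CPM gave 1.81 (SE 0.183), from a level below the filter. In each of these 4 classes the lower mutant lay far above the higher control. In SMCs the controls were already high and apart, at 214 and 231 against 203 and 148 CPM (0.36), and in FBs the groups overlapped at 81.8 and 119 against 68.5 and 83.4 CPM.

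*Maff* (ENSMUSG00000042622, chromosome 15 from 79230821 to 79243276), a small MAF factor without an activation domain, was at least 2-fold higher in 5 classes. ECs gave 39.8 and 42.5 against 16.8 and 16.2 CPM (1.39, SE 0.128) and CHOs 36.8 and 35.9 against 11.5 and 10.95 CPM (1.79, SE 0.0726), both with close replicates, and the CHO difference was 2.41 with classes from the clustering. Below the filter, BMSCs gave 17.5 and 10.3 against 4.23 and 4.49 CPM (1.65), SMCs 21.1 and 23.1 against 8.97 and 6.68 CPM (1.60) and OBs 7.91 and 6.29 against 0.62 and 1.497 CPM (2.56, SE 0.421). The OB value, the largest of the 60, rests on 8 to 21 counts a library. FBs, where *Maff* was highest in controls, stood at 39.5 and 38.3 against 40.8 and 44.9 CPM, with both mutants slightly below. *Fosl2* (ENSMUSG00000029135, chromosome 5 from 32292707 to 32315186), which encodes the AP-1 subunit FRA2, differed by 0.79 in BMSCs (30.6 and 35.2 against 19.3 and 18.6 CPM), 0.65 in CHOs (64.1 and 64.3 against 42.8 and 44.5 CPM) and 0.44 in ECs (121 and 127 against 90.8 and 100.1 CPM). It reached 2-fold in no class. In FBs both mutants lay below both controls, at 35.1 and 42.7 against 54.0 and 48.4 CPM (−0.34, SE 0.147), while classes from the clustering gave 0.16.

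*Ier3* (ENSMUSG00000003541, chromosome 17 from 36132568 to 36133815), the survival regulator, was higher in both mutants in all 6 classes. It stood in ECs at 476 and 466 CPM in mutants against 166 and 170.5 CPM in controls, that is 471 ± 7.42 CPM (SD, n = 2) against 168 ± 3.49 CPM (SD, n = 2), a difference of 1.55 (SE 0.0683) or 2.93-fold. The differences were larger in OBs, 1.98 (SE 0.166) at 227 and 164 against 46.0 and 50.5 CPM, and in BMSCs, 1.86 (SE 0.215) at 214 and 173 against 63.0 and 47.3 CPM. In SMCs 198 and 192 against 73.7 and 79.5 CPM gave 1.36. In CHOs, the class with the most *Ier3*, 508 and 464 against 269.8 and 273 CPM gave 0.93, and in FBs 202 and 212 against 101 and 123 CPM gave 0.93, or 1.68 with classes from the clustering. *Sertad1* (ENSMUSG00000008384, chromosome 7 from 27186335 to 27189846), the CDK4 cofactor, had the most even difference, between 0.90 and 1.30 over the 6 classes. It stood in ECs at 107 and 100.4 against 51.9 and 52.1 CPM (1.06, SE 0.0884), in CHOs at 80.1 and 76.0 against 39.6 and 37.1 CPM (1.12, SE 0.0549) and in FBs at 58.0 and 68.2 against 33.2 and 36.6 CPM (0.90, SE 0.144). No class showed overlap for either gene.

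**Figure D2:**
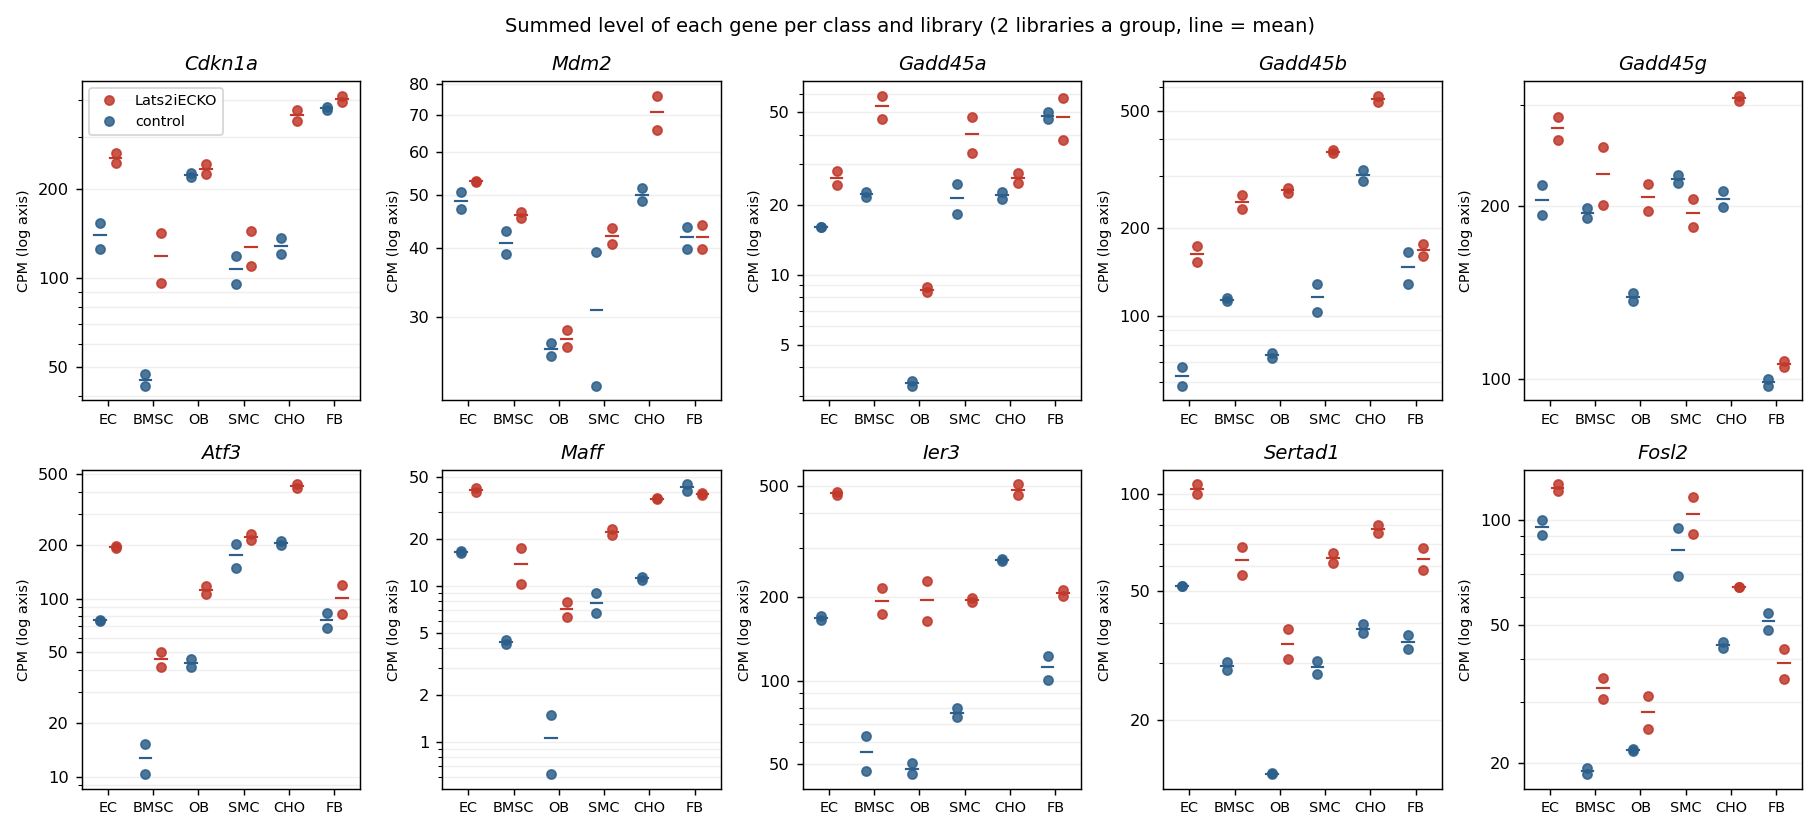
Summed level of each of the 10 genes in CPM (logarithmic axes, one panel a gene) in each class of cells, with one point for each of the 2 Lats2iECKO (red) and 2 control (blue) libraries and a line at their mean. For *Ier3* and *Sertad1* red points lie above blue ones in all 6 classes, while for *Cdkn1a* in OBs and SMCs they overlap.

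The SMC, CHO and EC classes differed in make-up between the genotypes, so the same values were read within subclasses. Barcodes without *Myh11* made up 47.3% and 47.2% of the SMCs of mutants and 1.09% and 4.96% of those of controls. Within the *Myh11*-positive SMCs all 10 genes were higher in both mutants, as were 30.5% of all genes tested there, while 33.9% were lower. *Gadd45b* stood there at 655 and 595 against 103 and 135 CPM (2.41, SE 0.108) and *Atf3* at 430.0 and 426 against 204 and 156 CPM (1.27, SE 0.107). *Gadd45g* and *Cdkn1a*, which were lower or overlapping in SMCs as a whole, stood at 348 and 354 against 221 and 234 CPM (0.65) and 229.6 and 162 against 96.4 and 119.9 CPM (0.87). The *Myh11*-negative SMCs gave no value, with 3 barcodes in the first control.

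Among CHOs the hypertrophic cells, marked by *Ihh* and *Col10a1*, held 52.1% and 48.8% of the class in mutants and 38.3% and 36.4% in controls. Superficial cells held 26.2% and 28.3% against 18.7% and 20.4%, and the remaining CHOs 21.7% and 22.9% against 43.0% and 43.2%. In hypertrophic cells all 10 genes were higher in both mutants, with a median difference of 1.42. Of all genes tested in them 32.4% were higher in both mutants and 49.7% lower. *Cdkn1a* reached 537 and 499 against 131 and 162 CPM (1.91, SE 0.109), *Maff* 42.0 and 41.9 against 6.91 and 5.05 CPM (2.90, SE 0.123) and *Atf3* 674 and 642 against 199 and 258 CPM (1.61, SE 0.153). *Mdm2* stood at 94.0 and 82.2 against 47.8 and 47.2 CPM (0.98, SE 0.0784). Superficial CHOs, marked by *Prg4*, showed another picture, with 4 genes higher, 5 lower, 1 overlapping and a median of −0.01, beside 23.5% of all genes higher and 38% lower. In them *Cdkn1a* stood at 238 and 237 against 296 and 271 CPM (−0.20, SE 0.0696) and *Gadd45b* at 390.4 and 399.8 against 281 and 280.3 CPM (0.54, SE 0.0656). The remaining CHOs lay between, with 8 genes higher, 2 overlapping and a median of 0.48, beside 22.9% of all genes higher and 51.9% lower. The difference between subclasses was not tested.

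Among ECs arteriolar cells held 26.4% and 28.1% of the class in mutants and 11.8% and 11.8% in controls, sinusoidal cells 15.2% and 14.8% against 28.7% and 29.6%, metaphyseal cells 27.0% and 28.0% against 32.5% and 30.2% and arterial cells 30.1% and 28.1% against 25.97% and 27.2%. The part of this shift in the values of ECs as a whole was not tested. Arteriolar cells were marked by *Fmo2* and *Vwf* alone, and the study reports *Vwf* as upregulated in mutant metaphyseal ECs. Whether mutant metaphyseal cells were therefore gated as arteriolar was not tested, so the shares and values of these subclasses carry that limit. Arterial cells, marked by *Gja4* and *Sox17*, had a median difference of 1.38, against 0.94 in arteriolar, 0.75 in metaphyseal and 0.88 in sinusoidal cells. Arterial *Cdkn1a* stood at 579.9 and 465 against 159.8 and 183 CPM (1.67, SE 0.123), whereas in arteriolar cells the groups overlapped at 131 and 130.1 against 113 and 168 CPM. *Gadd45b* ranged from 0.76 in metaphyseal to 2.05 in arterial cells, at 395 and 339 against 108 and 77.4 CPM in the latter. *Atf3*, at 1.43 in ECs as a whole, differed by 0.83 in metaphyseal, 0.88 in sinusoidal, 1.28 in arteriolar and 1.57 in arterial cells. *Ier3* differed by 1.26 to 1.86 over the 4 subclasses, *Maff* by 0.97 to 1.91 and *Sertad1* by 0.73 to 1.37. *Mdm2* overlapped in 3 of the 4 subclasses and was lower in arteriolar mutants (−0.17). *Gadd45g* overlapped in arteriolar, metaphyseal and sinusoidal cells (0.14, 0.05 and 0.06) and differed by 0.94 in arterial cells. Metaphyseal *Cdkn1a* differed by 0.34, at 152.02 and 175 against 116 and 151.93 CPM. The share of all genes without overlap was not computed for EC subclasses. Diaphyseal cells held 84.7% and 85.3% of the BMSCs of mutants and 82.8% and 81.5% of those of controls. Diaphyseal and metaphyseal BMSCs had 9 and 8 genes higher, none lower, and medians of 1.29 and 1.15. Of all genes tested 29.3% were higher and 44.7% lower without overlap in diaphyseal, and 22.5% and 35.5% in metaphyseal cells. In each of the 10 subclasses read the median of all genes tested lay within 0.01 of 0.

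**Figure D3:**
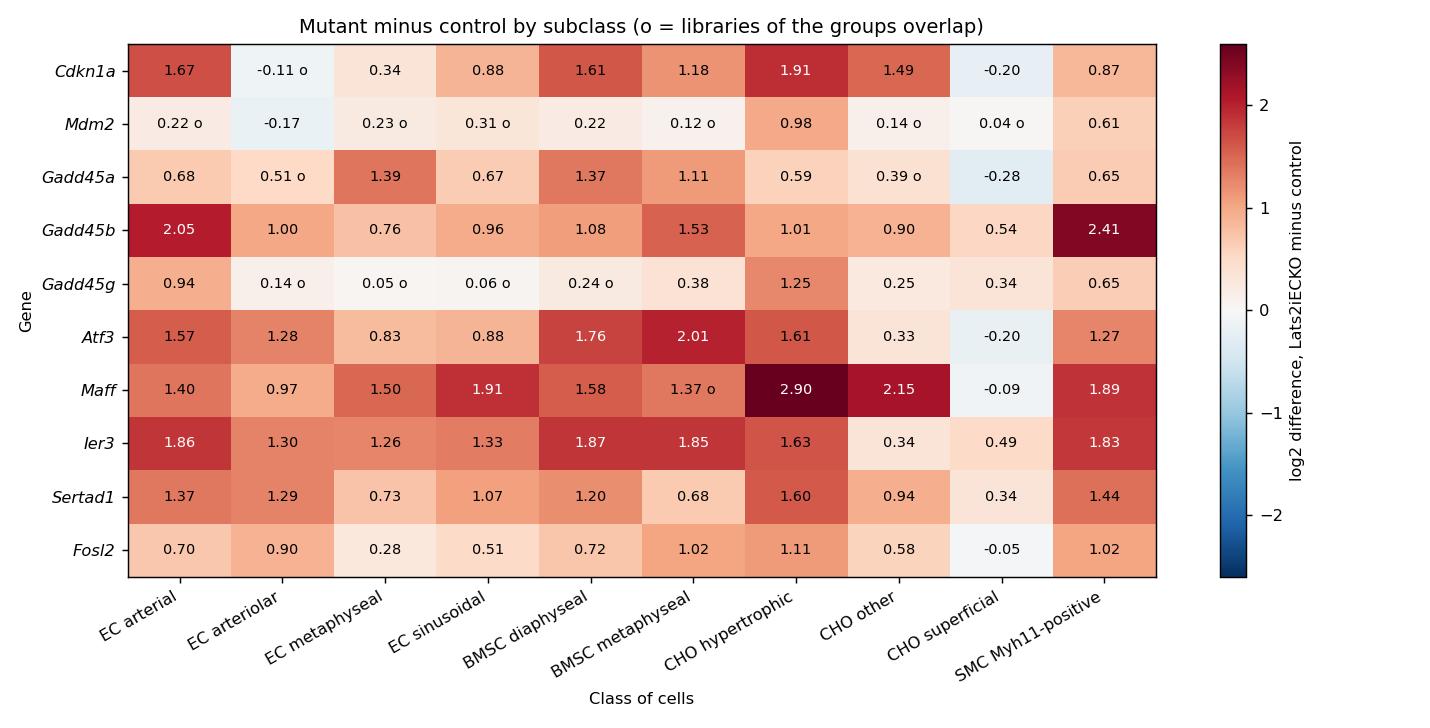
Log2 difference of each gene (rows) between Lats2iECKO and control libraries in each subclass with at least 10 barcodes in every library (columns); the letter o marks overlapping libraries. All 10 genes are positive in hypertrophic CHOs and *Myh11*-positive SMCs, while superficial CHOs have a median of −0.01.

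The genes were also read cell by cell, after each barcode was thinned to 1000 UMIs, as the number of the 10 genes with a UMI in the same cell. At least 3 of them were seen in 12.9% and 12.9% of cells in mutants against 3.42% and 4.56% in controls among ECs. CHOs gave 27.5% and 25.4% against 7.68% and 8.93%, BMSCs 6.71% and 5.69% against 1.66% and 1.56%, OBs 8.93% and 6.74% against 1.43% and 1.24%, SMCs 13.2% and 14.3% against 6.20% and 4.61% and FBs 6.14% and 7.55% against 4.37% and 2.90%. In all 6 classes both mutants lay above both controls, but the genes were chosen by that difference, so nothing is read from it. Both mutants also lay above both controls in erythroid barcodes, at 3.71% and 7.45% against 0% and 0.395%. There the 0 of 569 barcodes allows a share of up to 0.527%. Control erythroid barcodes held some of these genes themselves, unthinned *Gadd45a* in 27.8% and 26.9% of cells and *Mdm2* in 23.55% and 26.7%. Set against erythroid barcodes of the same library, the shares of ECs, SMCs, CHOs and FBs were higher in both mutants. In FBs the margin was narrow in the second mutant, at 7.55% against 7.45%. The shares of BMSCs and OBs were lower than the erythroid share in the second mutant. The part of free RNA in these shares was not tested. Whether the genes rise together in the same cells, beyond the share of each gene alone, was not tested either. Without thinning the shares were 58.4% and 63.9% against 44.8% and 44.5% in ECs and 64.9% and 64.8% against 64.6% and 65.8% in OBs, where mutant cells are shallower (median UMIs of 9492 and 11800 against 15220 and 16240) and the shares no longer separate the groups. EC median UMIs were 6814 and 6543 against 5572 and 5302. Erythroid barcodes gave 14.1% and 20.4% against 8.08% and 12.2% unthinned, at median UMIs of 4164 and 4026 against 5950 and 5956.

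Levels were then compared between classes within the controls alone. The choice of genes did not use this contrast, but it did use the same control values, set against the mutants. The p values here are therefore not free of that choice. Each class was set against the mean of the other 5 in the 2 libraries, and a call needed an adjusted p no higher than 0.05 together with a 2-fold difference. Of the 60 comparisons 17 were called. Of all genes tested 16.2% were called higher and 16.5% lower in ECs, 12% and 10.4% in BMSCs, 12% and 15.2% in OBs, 11.2% and 14.1% in SMCs, 12.8% and 12.8% in CHOs, and 11% and 10.8% in FBs. BMSCs had 5 of the 10 genes called lower and none higher. *Cdkn1a* stood there at 47.4 and 43.3 CPM, a log2 difference from the other classes of −2.28 (SE 0.083, adjusted p = 9.97e-11). *Atf3* at 15.3 and 10.4 CPM differed by −3.27 (SE 0.151, adjusted p = 1.99e-07), and *Maff*, *Ier3* and *Fosl2* by −1.42, −1.38 and −1.79.

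CHOs had 3 genes called higher. *Gadd45b* stood at 288 and 315 CPM, 1.72 (SE 0.0527, adjusted p = 3.48e-13), *Atf3* at 202 and 212 CPM, 1.98 (SE 0.0899, adjusted p = 1.59e-07), and *Ier3* at 269.8 and 273 CPM, 1.82 (SE 0.0774, adjusted p = 2.88e-08). FBs also had 3. *Maff* at 40.8 and 44.9 CPM differed by 2.93 (SE 0.16, adjusted p = 2.51e-11), *Gadd45a* at 46.8 and 50.3 CPM by 1.83 (SE 0.114, adjusted p = 1.77e-10) and *Cdkn1a* at 378 and 370.5 CPM by 1.76 (SE 0.0776, adjusted p = 1.56e-09). The FB gate mixes cells, as given above, and these levels are not all particular to it. Control superficial CHOs held *Maff* at 43.8 and 45.0 CPM, *Cdkn1a* at 296 and 271 CPM and *Gadd45a* at 27.7 and 28.5 CPM. Of the control classes, only FBs reached the share of cells that the gene filter needs for *Maff* and *Gadd45a*. *Maff* was counted in 25.4% and 22.1% of control FBs, and *Gadd45a* in 24.2% and 24.3%. Both genes therefore entered this comparison through the class in which they were highest. Their calls in FBs, OBs and BMSCs are not free of that entry. OBs paired a high *Cdkn1a*, 226 and 219 CPM with 1.42 (SE 0.0627, adjusted p = 6.24e-10), with the lowest *Gadd45a* and *Maff*, called at −2.21 and −2.88. SMCs had a high *Atf3* (203 and 148 CPM, 1.47, SE 0.163, adjusted p = 1.05e-04). ECs had a high *Fosl2* (90.8 and 100.1 CPM, 1.03, SE 0.0667, adjusted p = 9.12e-11) and the lowest *Gadd45b* (58.1 and 67.4 CPM, −1.40, SE 0.082, adjusted p = 6.76e-10). The *Cdkn1a* call in OBs ended with library totals as the only scaling (0.81) and with all 4 libraries (0.97), and the *Gadd45b* call in ECs with classes from the clustering (−0.93). Library totals moved the median of all genes by −0.61 in OBs to 0.34 in BMSCs, and brought calls of *Ier3*, *Sertad1* and *Fosl2* in OBs (−1.27, −1.40 and −1.21), *Maff* in ECs (1.22) and *Fosl2* in SMCs (1.09). In FBs *Gadd45g* was called with all 4 libraries (−1.02) and with classes from the clustering (−1.62), and *Gadd45b* with the latter (−1.92). Outside these alternatives *Mdm2*, *Gadd45g* and *Sertad1* were called in no class.

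In CPM, before the scaling factors of the calls, the order of the control levels ran for *Cdkn1a* from FBs over OBs, ECs, CHOs and SMCs to BMSCs, an 8.25-fold range of means in which only ECs and CHOs overlapped as neighbours. For *Atf3* it ran from CHOs, overlapping with SMCs, over FBs, overlapping with ECs, to OBs and BMSCs, a 16.1-fold range. *Ier3* fell from CHOs over ECs, FBs and SMCs to BMSCs and OBs, of which the last 2 overlapped, and *Sertad1* from ECs over CHOs and FBs to BMSCs and SMCs, which overlapped, and OBs. *Mdm2* was the most even gene, with a 1.92-fold range and overlap between 4 of the 5 pairs of neighbours. *Maff* had the widest range, 40.5-fold from FBs to OBs, where it rests on few counts. Part of this order depends on the scaling. In the log2 differences behind the calls *Ier3* was lowest in BMSCs (−1.38, against −0.66 in OBs), *Cdkn1a* stood higher in CHOs (−0.04) than in ECs (−0.30), *Sertad1* higher in SMCs (−0.20) than in BMSCs (−0.41), and *Mdm2* was lowest in SMCs (−0.52, against −0.07 in OBs).

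Other genes of the same pathways were then compared between mutants and controls with edgeR's quasi-likelihood test. A gene was called at an adjusted p (Benjamini-Hochberg over all genes tested in the class) no higher than 0.05 together with a 2-fold difference. Of all genes tested 2.08% were called higher and 2.05% lower in ECs, 0.82% and 0.363% in BMSCs, 1.19% and 0.21% in OBs, 5.66% and 4.55% in SMCs, 2.11% and 1.31% in CHOs, and 0.356% and 0.107% in FBs. Of 28 other p53 target genes 7 to 12 were tested in a class. The counts called higher were 1 of 12 in ECs, 1 of 8 in BMSCs, 0 of 7 in OBs, 1 of 9 in SMCs, 0 of 11 in CHOs and 0 of 7 in FBs, with 1 called lower, in SMCs. Without the gene filter, when 27 or 28 of them were tested, the targets called higher and lower numbered 5 and 0 in ECs, 3 and 0 in BMSCs, 2 and 1 in OBs, 4 and 3 in SMCs, 2 and 0 in CHOs and 1 and 0 in FBs, and of all genes then tested 5.09% in ECs, 2.47% in BMSCs, 2.14% in OBs, 7.02% in SMCs, 7.63% in CHOs and 1% in FBs were called in either direction. *Gdf15*, which encodes a stress-induced cytokine, was below the filter, at 16.9 and 15.002 against 2.77 and 2.19 CPM (2.75) in ECs and 11.9 and 12.2 against 2.25 and 1.00 CPM (2.95) in CHOs. It was named after these values were seen. Other targets below the filter went both ways, with *Pmaip1* higher in ECs (1.46) and *Zmat3* lower in CHOs (−0.95). In ECs *Plk3*, a stress-responsive kinase, rose from 14.3 and 17.2 CPM to 32.4 and 32.8 CPM (1.11, adjusted p = 4.18e-11), and fell just under 2-fold, to a log2 difference of 0.98, without the first control. *Btg2*, an antiproliferative gene that is also an immediate early gene, rose in BMSCs (262 and 202 against 86.6 and 92.5 CPM, 1.42, adjusted p = 0.00129). In SMCs *Polk*, a DNA polymerase for damaged templates, rose (1.26, adjusted p = 7.50e-06) and *Perp*, a desmosomal p53 target, fell (−1.32, adjusted p = 3.46e-06). These calls, and those of the other lists described next, are of whole classes. The make-up of SMCs, CHOs and ECs differs between the genotypes as given above, and the part of that difference was not tested for any list.

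At an adjusted p of 0.05 without the fold, the p53 targets that were higher and lower numbered 8 and 3 of 12 in ECs, 4 and 1 of 8 in BMSCs, 1 and 0 of 7 in OBs, 3 and 3 of 9 in SMCs, 7 and 0 of 11 in CHOs and 0 and 0 of 7 in FBs. Of all genes tested 30.7% and 31.4% in ECs, 20.8% and 20.5% in BMSCs, 10.9% and 6.67% in OBs, 24.3% and 24.2% in SMCs, 32.3% and 32% in CHOs and 3.49% and 2.49% in FBs were higher and lower by that measure. *Phlda3*, which encodes an AKT repressor, changed by 0.63, adjusted p = 5.63e-09 in ECs, and *Rps27l* by 0.50, adjusted p = 8.36e-09. *Sesn2* changed by 0.81, adjusted p = 1.36e-10 and *Ddit4l* by 0.82, adjusted p = 1.66e-15 in CHOs. *Sesn1* went the other way in ECs (−0.49, adjusted p = 3.98e-06). The median of the tested p53 targets was 0.42 in ECs, 0.18 in BMSCs, −0.01 in OBs, 0.01 in SMCs, 0.22 in CHOs and −0.13 in FBs, beside medians of all genes within 0.01 of 0. No p53 regulator was called in any class, and at the adjusted p alone those higher and lower numbered 3 and 3 of 7 in ECs, 3 and 1 of 7 in BMSCs, 2 and 1 of 7 in OBs, 3 and 1 of 7 in SMCs, 3 and 5 of 10 in CHOs and 0 and 0 of 7 in FBs. *Trp53* itself was higher by 0.52, adjusted p = 3.56e-07 in ECs, at 89.3 and 92.5 against 63.0 and 69.9 CPM, by 0.61, adjusted p = 0.00407 in SMCs, by 0.22, adjusted p = 0.0422 in BMSCs and by 0.30, adjusted p = 1.13e-04 in CHOs. The ribosomal protein genes *Rpl5* and *Rpl11*, whose products can bind MDM2, were higher in 5 classes, by 0.22 to 0.69, under 2-fold in each. *Mdm4*, which encodes a partner of MDM2, was lower in the same 5 classes, with log2 differences of −0.56 in SMCs to −0.28 in CHOs.

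The immediate early genes called higher were 2 of 20 in ECs, 7 of 16 in BMSCs, 4 of 18 in OBs, 4 of 20 in SMCs, 2 of 21 in CHOs and 0 of 18 in FBs, and none was called lower in any class. At an adjusted p of 0.05 alone, those higher and lower numbered 18 and 1 of 20 in ECs, 16 and 0 of 16 in BMSCs, 15 and 0 of 18 in OBs, 18 and 0 of 20 in SMCs, 19 and 0 of 21 in CHOs and 2 and 0 of 18 in FBs. The 7 calls in BMSCs fell to 2 without the first mutant and to 4 without the second control. Their median difference was 0.59 in ECs, 0.89 in BMSCs, 0.69 in OBs, 0.73 in SMCs, 0.54 in CHOs and 0.13 in FBs. *Fos* stood in BMSCs at 1231 and 999 against 391 and 388 CPM (1.57, adjusted p = 1.57e-08), in OBs at 1104 and 954 against 420.2 and 419 CPM (1.27, adjusted p = 2.31e-21) and in ECs at 995 and 1031 against 488 and 505 CPM (1.09, adjusted p = 1.36e-27). *Junb* rose most in OBs, to 515 and 451 CPM from 150.1 and 156 CPM (1.63, adjusted p = 1.64e-26). *Klf4* rose in BMSCs (1.44, adjusted p = 4.09e-09), *Jun* and *Zfp36* in OBs (1.05 and 1.03), and *Klf2* in CHOs (1.35, adjusted p = 3.47e-06). The MAP kinase phosphatase *Dusp6* rose in SMCs from 6.30 and 6.68 CPM to 48.0 and 47.9 CPM (2.89, adjusted p = 1.80e-08), and *Dusp5* in CHOs (2.57, adjusted p = 3.03e-22), both read over whole classes of unequal make-up. The summed level of the list was 8608 and 8525 CPM in mutants against 5779 and 5785 CPM in controls in ECs, and 5963 and 4850.1 CPM in mutants against 2839 and 2703 CPM in controls in BMSCs. In FBs it overlapped, at 5199 and 5564 CPM in mutants against 4619 and 5401 CPM in controls, and 5 genes of the list were called with FBs taken from the clustering. These genes are also known to rise during enzymatic digestion, and the part of digestion in the values of the 10 genes was not tested.

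**Figure D4:**
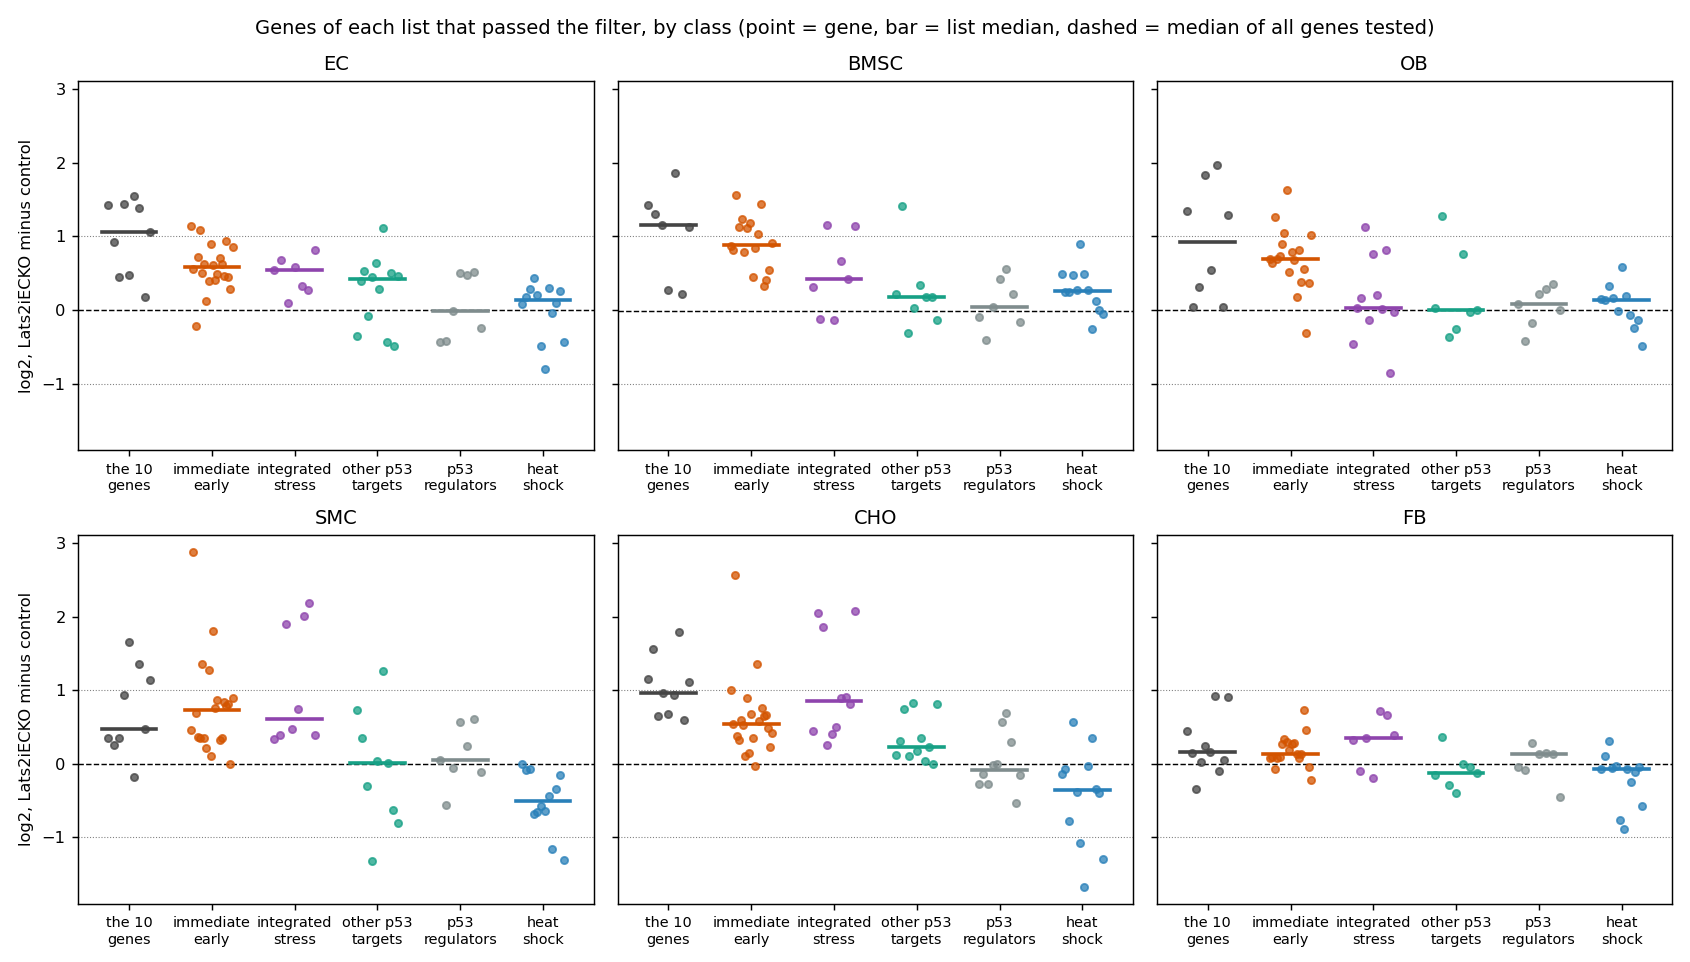
Log2 difference between Lats2iECKO and control libraries of the genes of each list that passed the filter, in one panel a class; points are genes, thick bars list medians, the dashed line the median of all genes tested and the dotted lines 2-fold. The medians of the immediate early genes lie at 0.54 to 0.89 outside FBs, and those of the other p53 targets between −0.13 and 0.42. The lists were chosen with earlier results of these data known.

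Of the integrated stress response genes, the targets of ATF4 and its relatives, 3 of 10 were called higher in CHOs, 3 of 8 in SMCs, 2 of 7 in BMSCs and none in ECs, OBs or FBs, and none was called lower. The BMSC count was 1 without the first mutant. At an adjusted p of 0.05 alone, those higher and lower numbered 5 and 0 of 7 in ECs, 5 and 0 of 7 in BMSCs, 2 and 2 of 11 in OBs, 8 and 0 of 8 in SMCs, 10 and 0 of 10 in CHOs and 2 and 0 of 7 in FBs. *Cebpb* rose in CHOs (197 and 178 against 55.3 and 54.9 CPM, 1.86, adjusted p = 6.64e-19), SMCs (451 and 511 against 146 and 114 CPM, 1.90, adjusted p = 3.47e-10) and BMSCs (1.16, adjusted p = 0.00311). *Atf5* and *Vldlr* rose in CHOs (2.05, adjusted p = 1.78e-22 and 2.08, adjusted p = 5.95e-20), *Nupr1* and *Ddit4* in SMCs (2.18, adjusted p = 9.43e-10 and 2.01, adjusted p = 3.87e-06) and *Ppp1r15a*, which encodes the GADD34 phosphatase subunit, in BMSCs (1.14, adjusted p = 3.30e-08). The SMC values are of the whole class, with *Myh11*-negative cells at 47.3% and 47.2% of mutant SMCs against 1.09% and 4.96% of controls. The stress gene *Ddit3* passed the adjusted p but not the 2-fold limit in all 6 classes, with differences of 0.40 in CHOs to 0.76 in OBs.

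At an adjusted p of 0.05 alone, the heat-shock genes that were higher and lower numbered 6 and 3 of 12 in ECs, 7 and 0 of 12 in BMSCs, 0 and 1 of 11 in OBs, 0 and 8 of 12 in SMCs, 2 and 8 of 12 in CHOs and 0 and 3 of 12 in FBs. In BMSCs *Hspa1a*, which encodes an inducible chaperone, stood at 182 and 137 against 88.4 and 89.3 CPM (0.89, adjusted p = 0.00258), under 2-fold. In CHOs *Hspa1b*, *Hspa1a* and *Hsph1*, which encode inducible chaperones, fell, the first from 294 and 278 CPM to 81.6 and 86.3 CPM (−1.68, adjusted p = 5.41e-22), the others by −1.08 and −1.29 on the log2 scale. In SMCs *Hsph1* and *Hspb1* fell (−1.31, adjusted p = 4.77e-07 and −1.16, adjusted p = 3.12e-10). The SMC and CHO values are of the whole classes, with more *Myh11*-negative SMCs and more hypertrophic CHOs in mutants. With the 2-fold limit no heat-shock gene was called in the other 4 classes, and none was called higher in any. The list medians were 0.14 in ECs, 0.26 in BMSCs, 0.13 in OBs, −0.51 in SMCs, −0.36 in CHOs and −0.08 in FBs, and the summed level in SMCs was 3549 and 3412 CPM in mutants against 5331 and 5316 CPM in controls.

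Among CDK inhibitor genes other than *Cdkn1a*, *Cdkn2d* rose (1.22, adjusted p = 1.06e-14) and *Cdkn1c* fell (60.0 and 54.1 against 129.7 and 114 CPM, −1.04, adjusted p = 2.80e-18) in ECs, and none was called elsewhere. Only 1 of the 2 stayed called without the second mutant, or without the first control. Of the relatives of the 10 genes, *Ier5l* and *Mafk* rose in CHOs (1.14, adjusted p = 4.88e-16 and 1.21, adjusted p = 3.77e-14) and *Ier2* in BMSCs and SMCs (1.24 and 1.36). The large MAF factor *Maf* fell in ECs (60.2 and 68.8 against 154 and 144 CPM, −1.14, adjusted p = 5.87e-22), while the small *Maff* of the same cells was higher. Of 10 proliferation genes only 1 or 2 were tested in a class, and none was called.

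Free RNA moved with the genotype too. In empty droplets *Atf3* stood at 319.8 and 307 CPM in mutant libraries against 75.6 and 91.3 CPM in controls. *Ier3* stood at 389.5 and 349 CPM in mutant libraries against 179.7 and 158 CPM in controls, and *Cdkn1a* at 209 and 201 CPM in mutant libraries against 91.2 and 98.0 CPM in controls. Their part in the per-cell shares was not tested. Free RNA was estimated from hemoglobin at 0.859% to 3.47% of the counts of a class. At that share it would supply a median of 1.71% of a gene's level, and at most 30.6%, for *Atf3* in the BMSCs of a control. With the profile of empty droplets subtracted, the differences of the 10 genes moved by −0.03 to 0.09, and of the 52 comparisons that passed the filter 21 stood at or above 2-fold, as before (21).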

How the data were processed

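Mutant and control long bone stroma, 2 libraries each, was profiled by 10x 3′ scRNA-seq. The authors trimmed reads with cutadapt 3.5 and counted them with STARsolo 2.7.10a on GRCm39 with GENCODE M26, extended by CreERT2 and the reporter, and deposited estimated counts, introns included, some fractional because UMIs of reads matching several genes were shared out between them. Here barcodes with at least 1000 UMIs and 800 genes, at most 15% mitochondrial and 5% hemoglobin counts were kept and gated by marker scores (Python 3.11.15, scanpy 1.11.5). Expected counts were summed per class and library, rounded and tested with edgeR 4.0.16 (R 4.3.3, TMM, quasi-likelihood, Benjamini-Hochberg over the genes tested). The control classes were compared with the library as a block. Where a symbol stood on 2 rows (*Ddit3*), the row with more counts was used. Named genes of each list and class were up to 4 with the largest difference among those with an adjusted p no higher than 0.05 and the same direction in both libraries of each group. *Gdf15*, *Sesn1* in ECs, and *Ddit3* and *Mdm4* in CHOs, were named after their values were seen. *Pmaip1* in ECs and *Zmat3* in CHOs, both below the filter, were also named outside this rule. The 10 genes and the lists were chosen with earlier results of these data known. Positions are from GENCODE on GRCm39. The smallest p an exact permutation of 2 against 2 libraries can give is 0.333, so no single value was tested that way. On simulated data edgeR recovered 98% to 100.0% of 2-fold and larger changes, and 4.83% to 7.44% of the genes past an adjusted p of 0.05 in a class had not been changed. The simulation changed few genes of a class, with a spread fitted to these same libraries. In the real ECs 30.7% of genes were higher and 31.4% lower past that adjusted p, so the simulated rates may not hold for the real calls. 1 gene of the lists is not reported here. Alternatives were other normalizations, DESeq2 1.42.0, filters, gates and libraries left out.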

Additional observations from a re-analysis of the deposited data

Results flagged for a closer look

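In the other lists the genes named here were higher in both mutants of one class and lower in both mutants of another, and the differences between classes were not tested. *Cdkn1c* differed by 0.87 in FBs and −1.04 in ECs on the log2 scale, a gap of 1.91. *Hspa1a* differed by 0.89 in BMSCs and −1.08 in CHOs, a gap of 1.98. *Maf* differed by 0.99 in OBs and −1.14 in ECs, a gap of 2.13.

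Barcodes outside the 6 classes held more of some of the 10 genes in mutants than in controls. Among barcodes without a class *Atf3* stood at 344 and 258 against 33.9 and 86.1 CPM, a log2 ratio of 2.33. There mutants exceeded controls for *Gadd45b* by 1.63, *Maff* by 1.04, *Ier3* by 1.26 and *Sertad1* by 1.00. Among erythroid barcodes *Cdkn1a* stood at 88.2 and 135 against 4.07 and 12.1 CPM, a log2 ratio of 3.78, and *Atf3* at 61.6 and 117 against 3.18 and 7.57 CPM, a log2 ratio of 4.05. Erythroid mutants also exceeded controls for *Gadd45b* by 2.78, *Gadd45g* by 1.58, *Ier3* by 2.74, *Sertad1* by 1.82 and *Fosl2* by 2.30. Among hematopoietic barcodes *Cdkn1a* stood at 106 and 106 against 34.8 and 52.9 CPM, a log2 ratio of 1.27, while *Ier3* stood at 396 and 674 against 989 and 976 CPM, a log2 ratio of −0.88, with 28 cells in the smallest library. Empty droplets of the same libraries also held more of these transcripts in mutants, and the part of free RNA in these values was not tested.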

How the results depend on the processing

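Of 186 counts recomputed under alternatives, 166 stayed within 1.5 times and 20 did not. Of 630 counts of called genes of the other lists, 567 stayed and 63 did not. Of the 26 differences of 2-fold or more among the 10 genes, the 21 that passed the gene filter changed sign under no alternative that gave them a value, and the other 5 come from the fit without the filter, the only one that gave them. With classes from clusters *Gadd45b* in FBs moved from 0.24 to 1.65, *Ier3* in FBs from 0.93 to 1.68 and *Maff* in CHOs from 1.79 to 2.41, the cause of which was not tested. Without the gene filter the genes called were 1427 in ECs, 739 in BMSCs, 570 in OBs, 1706 in SMCs, 2515 in CHOs and 237 in FBs, because 23613 to 32942 genes were then tested, and the p53 targets called were 5 in ECs, 3 in BMSCs, 3 in OBs, 7 in SMCs, 2 in CHOs and 1 in FBs. In FBs 17 genes were called with DESeq2 and 109 with classes from clusters, against 26. With 1 library left out, FBs gave 23 to 41 genes, the highest without the second mutant. The p53 targets called with 1 library left out were 0 to 1 in ECs and 0 to 2 in OBs. In OBs 1 target was called with doublets left out and 1 with classes from clusters, and in SMCs 1 target with the stricter gate. Against other classes in controls, the sign turned with library totals only for *Cdkn1a* in ECs (0.00437), *Mdm2* in BMSCs (0.0998) and *Gadd45g* in BMSCs (0.22) and OBs (−0.36). With all 4 libraries it turned for *Cdkn1a* in CHOs (0.50), *Gadd45b* in OBs (0.11) and FBs (−0.12) and *Fosl2* in FBs (−0.11). With classes from clusters it turned for *Gadd45b* in OBs (0.41), SMCs (0.42) and FBs (−1.92), and in FBs for *Ier3* (−0.96), *Sertad1* (−0.0579) and *Fosl2* (−0.11). The cause was not tested. Leaving out a control library was not run there, since no residual degrees of freedom remain.

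The deviations of same-numbered libraries correlated at r = −0.07 to 0.13 over the classes, and nothing else ties the numbers, so they were not taken to pair the libraries. With the replicate number as a block the genes called were 244 in ECs, 65 in BMSCs, 93 in OBs, 516 in SMCs, 235 in CHOs and 28 in FBs, against 242 in ECs, 62 in BMSCs, 87 in OBs, 516 in SMCs, 232 in CHOs and 26 in FBs.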

Other observations

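Over the 24 sums of 6 classes and 4 libraries, which share libraries and depth and are given as a description only, the genes most like each of the 10 by Pearson's r of log2(CPM + 1) among 3410 genes were read. The 3 highest are given with r for 5 of them. For *Cdkn1a* they were *Raph1* (0.91), *Tob1* (0.90) and *Ackr3* (0.86). For *Sertad1* they were *Nfkbia* (0.94), *Pim3* (0.89) and *Sqstm1* (0.88), and for *Ier3* *Tiparp* (0.89), *Erh* (0.89) and *Rpl17* (0.89). For *Atf3* they were *Naca* (0.96), *Atp5g2* (0.92) and *Rplp2* (0.90), and for *Maff* *Anxa2* (0.94), *Ldlrad4* (0.93) and *Irf2bpl* (0.90).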
